A study of Mus musculus with 4 samples.

Results

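The CpG islands described here are the long ones, the runs of 15 or more array probes on the autosomes, measured for DNA methylation in mouse embryonic stem cells. Probes were joined into a region wherever the next start on the chromosome came within 500 bp, after removing any that an array flagged as an outlier. Under this rule 523 long islands were found among 14121 regions of 3 or more probes, and they held 9784 of the 97651 probes on the array. The rule used only the positions of probes and the scanner's flags, not the measured levels. Another 12 regions of 15 or more probes lay off the autosomes and were not counted as members.

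The study profiled 4 samples, each on 1 array: the Parp-1 deficient clones 210-58 and 226-47, both derived from the J1 line, J1 cells treated with the PARP inhibitor PJ34, and wild type J1 cells. Parp-1 sits in the nucleus and builds chains of ADP-ribose on itself and on other proteins, and PJ34 inhibits enzymes of this family. Sonicated DNA bound by an antibody against 5-methylcytidine (the immunoprecipitated fraction, IP) carried Cy5, and whole genomic DNA of the same cells carried Cy3. The dose and duration of PJ34, the passage of the cells and the alleles of the clones are not stated in the labels. Each deficient line is 1 clone, and neither wild type nor PJ34 treated cells had a second array.

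CpG islands are stretches of DNA rich in CpG dinucleotides, and most of them carry little methylation in embryonic stem cells. The longest islands often lie at genes that regulate development, which in these cells are kept silent or poised by Polycomb proteins rather than by DNA methylation. Where an island does carry methylation, it may lie along the whole island, as at imprinted loci, or at its borders, where CpG density falls off toward the flanking DNA. MeDIP pulls down more DNA where there are more methylated CpGs, so its signal depends on CpG density as well as on methylation. No header or label gives the genome build. The positions are taken to fit mouse build mm8, which was not tested here, and no genome or annotation of that build was used, so islands are named by position and no sequence is shown.

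A level is the mean over an island's probes of log2(IP / whole DNA) on a scale where the median probe of each array is 0. Long islands had 15 to 42 probes, with a median of 17, and spanned 1410 to 5401 bp, with a median of 2162 bp. The median distance between neighbouring probe starts was 113 bp. Of the probes in long islands, Cy5 was well above background for 93.8% in clone 210-58, 98.0% in clone 226-47, 90.7% in PJ34 treated cells and 92.5% in wild type. The IP channel was dim, with median raw signals of 132, 145 and 126 over backgrounds of 57.5, 57.0 and 57.5 in clone 210-58, clone 226-47 and PJ34 treated cells, and of 120 over 56.5 in wild type. Low log ratios therefore rest on weak Cy5 signals, and the number of arrays limits the precision.

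Long islands lay below short regions on every array. Their median level was -0.16 in clone 210-58, -0.08 in clone 226-47, -0.25 in PJ34 treated cells and -0.32 in wild type. Regions of 3 to 5 probes had medians of 0.33, 0.27 and 0.26 in clone 210-58, clone 226-47 and PJ34 treated cells, and 0.29 in wild type. Levels below 0 were found in 58.3% of the long islands in clone 210-58, 57.4% in clone 226-47, 63.5% in PJ34 treated cells and 70.0% in wild type. Most long islands thus lay below the typical probe, and the share was largest in wild type. This direction depended on the processing: with normexp background correction the median of clone 210-58 was 0.13. Over probes with Cy5 well above background on all arrays the medians were 0.058 in clone 210-58, 0.080 in clone 226-47, 0.057 in PJ34 treated cells and -0.12 in wild type. That filter drops probes of low Cy5, which tends to raise a level, while 0 stayed the median of all probes. These filtered medians therefore cannot be read against the typical probe.

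Strong enrichment was rare in long islands. A level of 2 or more was reached by 6 of them (1.15%) in clone 210-58, 1 (0.191%) in clone 226-47, 11 (2.10%) in PJ34 treated cells and 8 (1.53%) in wild type. Among regions of 3 to 5 probes the shares were 15.7%, 11.8% and 17.2% in clone 210-58, clone 226-47 and PJ34 treated cells, and 17.5% in wild type. The spread of levels also differed by array, with interquartile ranges of 1.0035 in clone 210-58, 0.622 in clone 226-47, 0.868 in PJ34 treated cells and 0.831 in wild type. Clone 226-47 thus had both the narrowest range of levels and the fewest strongly enriched islands.

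**Figure D1:**
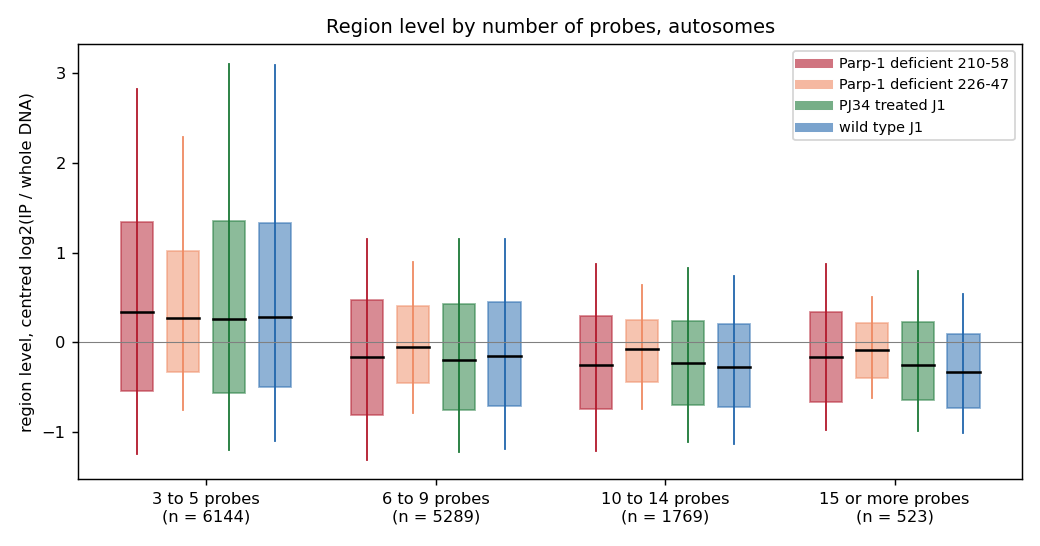
Region level (centred log2 of IP over whole DNA, vertical axis) on the autosomes by number of probes (horizontal axis), for the 4 arrays. Boxes span the quartiles, black bars are medians and lines run between the 10th and 90th percentiles; the medians of the 523 long islands lie between -0.08 and -0.32, below those of regions of 3 to 5 probes on every array.

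Levels just inside and just outside the rule were close. The 100 islands of exactly 15 probes had median levels of -0.26 in clone 210-58, -0.05 in clone 226-47, -0.20 in PJ34 treated cells and -0.33 in wild type. The 182 autosomal regions of 14 probes, just outside the rule, had medians of -0.22, -0.08 and -0.26 in clone 210-58, clone 226-47 and PJ34 treated cells, and -0.27 in wild type.

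Within an island the probes differed widely. The median SD over the probes of a long island was 1.22 in clone 210-58, 0.975 in clone 226-47, 1.33 in PJ34 treated cells and 1.16 in wild type. In regions of 3 to 5 probes it was 0.681, 0.582 and 0.767 in clone 210-58, clone 226-47 and PJ34 treated cells, and 0.638 in wild type. Regions of 10 to 14 probes were close to the long islands, at 1.20, 0.951 and 1.29 in the same order, and 1.11 in wild type. The mean of a long island can therefore hide both high and low stretches. The parts of each probe's own affinity and of the number of probes in this spread were not tested.

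The 6 highest islands by mean over the 4 arrays were mostly enriched from end to end. Their SD over probes, averaged over the arrays, was 0.275 to 0.755, against a median of 1.17 for all long islands. chr14:67076809-67078483, an island of 15 probes, was the highest, with 3.37 in clone 210-58, 1.73 in clone 226-47, 5.12 in PJ34 treated cells and 4.25 in wild type. On chr15:76005782-76009269, with 26 probes over 3488 bp, levels were 3.61, 2.82 and 3.08 in clone 210-58, clone 226-47 and PJ34 treated cells, and 2.79 in wild type. Both islands were strongly enriched, but only on the first did the clones lie below PJ34 treated and wild type cells.

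The next 3 were enriched on all 4 arrays. chr8:73841930-73843844 had levels of 2.89, 1.96 and 2.57 in clone 210-58, clone 226-47 and PJ34 treated cells, and 2.37 in wild type. Levels of chr5:137166046-137167919 were 2.24, 1.87 and 2.40 in clone 210-58, clone 226-47 and PJ34 treated cells, and 2.52 in wild type. On chr11:58950619-58952641 they were 1.99, 1.65 and 2.13 in clone 210-58, clone 226-47 and PJ34 treated cells, and 2.41 in wild type. The remaining one of the 6, chr2:173941465-173943988, was high in PJ34 treated and wild type cells alone and is described with the tested differences.

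The 6 lowest islands were depleted on all arrays. Their levels ranged over -2.18 to -1.62 in clone 210-58, -1.56 to -0.92 in clone 226-47, -2.00 to -1.44 in PJ34 treated cells and -2.05 to -1.61 in wild type. The lowest was chr11:29072076-29073638, at -2.18 in clone 210-58, -1.43 in clone 226-47, -2.00 in PJ34 treated cells and -2.05 in wild type. In these 6 islands 10 to 16 probes in clone 210-58, 14 to 19 in clone 226-47, 10 to 14 in PJ34 treated cells and 10 to 13 in wild type had Cy5 well above background, of 16 to 23 probes. Their log ratios therefore rest in part on probes near background.

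The 8 islands with most probes, 33 to 42 over 4101 to 5401 bp, were close to the typical probe or below it. Their levels ranged over -0.85 to 0.44 in clone 210-58, -0.54 to 0.37 in clone 226-47, -0.79 to 0.88 in PJ34 treated cells and -1.03 to 0.41 in wild type. The longest, chr11:120048885-120054285, had -0.71 in clone 210-58, -0.54 in clone 226-47, -0.68 in PJ34 treated cells and -0.98 in wild type. None of the 8 passed for the level when the clones were compared with wild type (limma adjusted p of 0.427 to 0.9997). The longest did pass for centre minus edge, a measure described below, with a difference of 0.97 (SE 0.27, limma adjusted p = 0.033). Of its 5 central probes, 3 were well above background in Cy5 in wild type. The Cy3 signal of clone 210-58 was higher than wild type by 0.59 on this island.

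The shape of the signal along an island was compared by its centre, the mean of the 5 central probes, and its edges, the mean of the 3 outermost probes at each end. Centres lay below edges in more islands than not. The median of centre minus edge was -0.30 in clone 210-58, -0.18 in clone 226-47, -0.21 in PJ34 treated cells and -0.36 in wild type. In 250 islands (47.8%) the centre was below the edges on all 4 arrays, in 137 (26.2%) it was above them on all 4, and in 136 the sign differed between arrays. Across the 523 islands the Pearson correlation of centre minus edge was 0.929 between the clones, and 0.865, 0.894 and 0.850 of clone 210-58, clone 226-47 and PJ34 treated cells with wild type. These correlations describe arrays that share their probes.

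By distance from the nearer end, the median probe level was highest at 100 to 250 bp and lowest beyond 1500 bp. In the outermost 100 bp it was -0.02 in clone 210-58, -0.13 in clone 226-47, -0.19 in PJ34 treated cells and -0.14 in wild type. At 100 to 250 bp it was 0.11, 0.03 and 0.02 in clone 210-58, clone 226-47 and PJ34 treated cells, and -0.02 in wild type. Beyond 1500 bp it was -0.41, -0.41 and -0.48 in clone 210-58, clone 226-47 and PJ34 treated cells, and -0.70 in wild type, over 279 probes of 59 islands. The share of these inner probes with Cy5 well above background was also lower, at 89.2%, 95.3% and 86.4% in clone 210-58, clone 226-47 and PJ34 treated cells, and 83.5% in wild type. The bins hold different islands: 523 in the outermost 100 bp, 288 at 1000 to 1500 bp and 59 beyond 1500 bp. Only the longest islands reach the last bin, so the profile mixes differences between islands with those within them. The parts of dim signal and of island length in the lower inner medians were not tested.

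**Figure D2:**
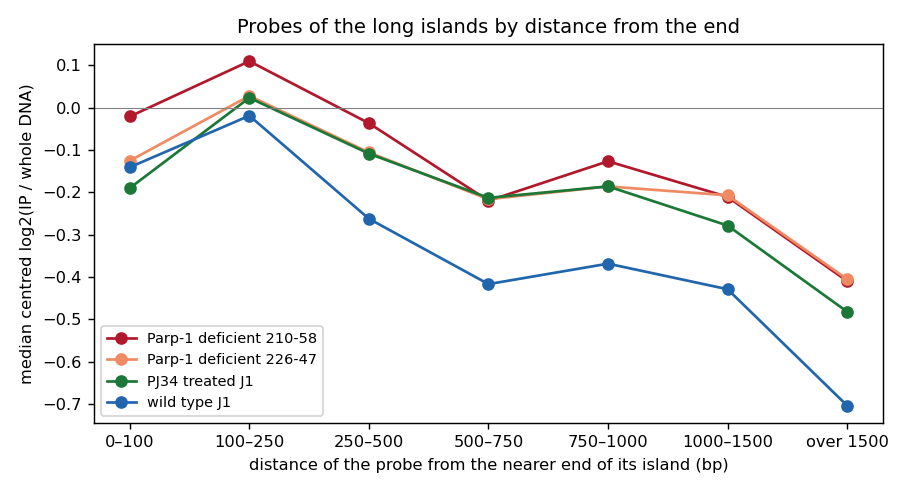
Median centred log2(IP / whole DNA) of the probes of the long islands (vertical axis) by distance from the nearer end of their island in bp (horizontal axis), 1 line per array. From 250 bp inward the wild type line lies below the other 3, at -0.26 to -0.70. The bins hold different islands, and the last one only 59 of the longest.

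Shape classes were set by the centre and the 2 edges. An island low throughout, with centre and both edges below 0, was found 95 times in clone 210-58, 101 times in clone 226-47, 135 times in PJ34 treated cells and 146 times in wild type. A low centre with an edge at 1 or above occurred in 84 islands of clone 210-58, 54 of clone 226-47, 79 of PJ34 treated cells and 72 of wild type, or 16.1%, 10.3%, 15.1% and 13.8% of them. With normexp these shares were 4.59%, 2.87% and 4.78%, and 5.35% in wild type, and with intensity loess 8.03%, 4.21% and 6.50%, and 8.99% in wild type. Islands high throughout, at 1 or above in all 3 places, numbered 17, 7 and 19 in clone 210-58, clone 226-47 and PJ34 treated cells, and 13 in wild type. The reverse of the low centre, a centre at 1 or above with an edge below 0, was seen in 31 islands of clone 210-58, 15 of clone 226-47, 25 of PJ34 treated cells and 12 of wild type. The class was the same on all 4 arrays for 255 islands (48.8%), of which 150 were in the mixed class, 65 were low throughout and 28 had a low centre with a high edge.

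The lowest centre minus edge by mean over arrays was that of chr14:20773443-20778326, an island of 37 probes over 4884 bp. Its centre was at -2.50 in clone 210-58, -1.66 in clone 226-47, -3.16 in PJ34 treated cells and -2.76 in wild type. Its left edge was at 1.33, 0.74 and 1.43 in clone 210-58, clone 226-47 and PJ34 treated cells, and at 0.12 in wild type. The centre was the low place on all arrays, but its Cy5 signal was well above background on 1 of the 5 central probes in clone 210-58, 5 in clone 226-47, 1 in PJ34 treated cells and 2 in wild type, so its exact level and rank rest on probes near background. In the 23-probe island chr8:127678311-127681072 the right edge was at 2.01, 1.86 and 2.29 in clone 210-58, clone 226-47 and PJ34 treated cells, and at 2.05 in wild type, and the centre at -1.82, -1.17 and -1.46, and at -2.11 in wild type. Together with chr5:143080100-143083906, chr1:75024597-75026509, chr13:63572394-63575329 and chr11:116347562-116350198 these were the 6 lowest for centre minus edge, at a mean over arrays of -3.02 to -2.30. On the islands of chromosomes 5 and 1 among them, too, at most 2 of the 5 central probes were well above background in clone 210-58, PJ34 treated cells and wild type.

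The highest centre minus edge by mean over arrays was that of chr2:34192943-34195443, with 17 probes. Its centre was at 0.60 in clone 210-58, 0.86 in clone 226-47, 1.09 in PJ34 treated cells and 0.18 in wild type. Its left edge was at -2.40, -1.47 and -1.78 in clone 210-58, clone 226-47 and PJ34 treated cells, and at -2.21 in wild type. The difference between centre and edge had the same sign on all arrays. All 5 central probes were well above background in Cy5, while the outermost left probe was not on any array, so the edge levels are less exact than the centre. The other islands with the largest centre minus edge were chr7:132960091-132963291, chr11:3188684-3191171, chr6:148901595-148903980, chr5:43520809-43523550 and chr12:109239928-109242694, and the 6 had means over arrays of 1.86 to 2.55.

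The island with the largest SD over probes, chr13:28959163-28960993, sloped across its 15 probes. Its left edge was at 2.27 in clone 210-58, 1.46 in clone 226-47, 2.01 in PJ34 treated cells and 1.60 in wild type, and its right edge at -3.03, -1.85 and -3.25, and at -3.02 in wild type. The left end was thus enriched on every array. Of the 3 probes of the right edge, 1 was well above background in clone 210-58, 2 in clone 226-47, and 0 in PJ34 treated cells and in wild type, so the low end has only a bound there. chr5:58005426-58008754, of 27 probes, had a right edge at 3.20, 2.70 and 4.30 in clone 210-58, clone 226-47 and PJ34 treated cells, and at 4.01 in wild type, with its centre and left edge between -0.84 and -0.25. The other 4 of the 6 most uneven islands were chr9:49549089-49550808, chr12:8524927-8526545, chr2:34192943-34195443 and chr1:37941392-37943343, and the SD of the 6, averaged over the arrays, was 1.72 to 2.05.

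Relative to wild type, long islands were shifted slightly upward on the other 3 arrays. Clone 210-58 differed from wild type by a median of 0.13, with 325 islands (62.1%) above wild type, and clone 226-47 by 0.23, with 403 (77.1%) above. PJ34 treated cells differed by 0.09, with 327 islands (62.5%) above. Regions of 3 to 5 probes had median differences of -0.06, -0.03 and -0.03 in the same order, and those of 10 to 14 probes had -0.01, 0.17 and 0.03. The 3 differences share the single wild type array and are described without a test.

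**Figure D3:**
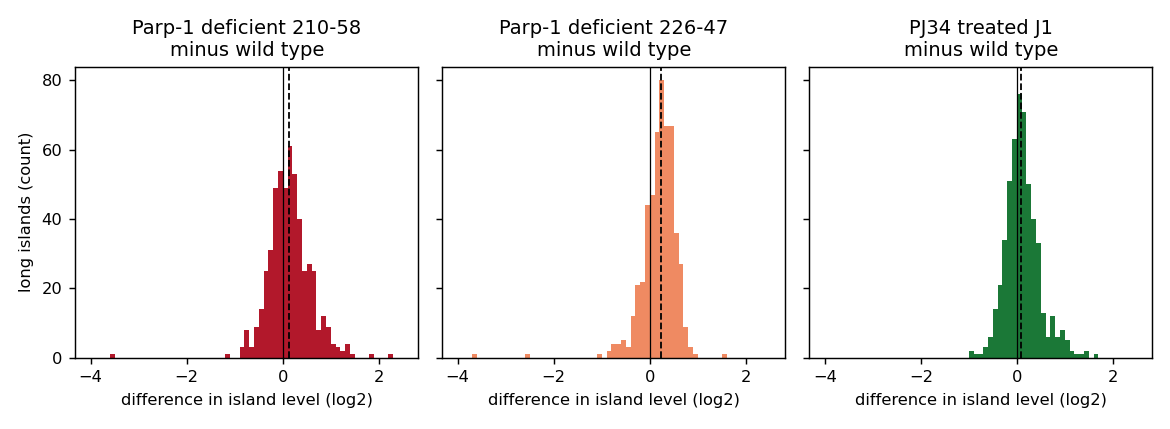
Number of long islands (vertical axis) by difference in island level from wild type (log2, horizontal axis, steps of 0.1) for clone 210-58, clone 226-47 and PJ34 treated cells. The solid line is 0 and the dashed line the median, at 0.13, 0.23 and 0.09; the isolated bars at -3.58 and -3.69 are the 22-probe island of chromosome 2 in the clones.

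The upward shift of long islands kept its sign under every scaling tried. With normexp background correction it was 0.31 in clone 210-58, 0.11 in clone 226-47 and 0.07 in PJ34 treated cells, while regions of 3 to 5 probes moved to 0.18, 0.00 and 0.02, so in clone 210-58 most of it was common to both kinds of region. With arrays scaled by their median absolute deviation it was 0.13, 0.21 and 0.11, against -0.10, 0.08 and -0.08 in regions of 3 to 5 probes. Slide and group are partly confounded, since clone 210-58 shared a slide with wild type, and clone 226-47 with PJ34 treated cells. Within the slides the median difference was 0.13 for clone 210-58 against wild type and 0.15 for clone 226-47 against PJ34 treated cells, and clone 226-47 differed from PJ34 treated cells by 0.14 in regions of 6 to 9 probes and by 0.0036 in those of 3 to 5.

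Some chromosomes differed in whole-DNA signal between the arrays, a measure of DNA copy number. In the 28 long islands of chromosome 8 the median Cy3 signal differed from wild type by -0.46 in clone 210-58 and -0.44 in clone 226-47 (log2), and the level by 0.40 and 0.31. In the 48 islands of chromosome 11 the Cy3 signal of clone 210-58 differed by 0.46 and its level by 0.04. Without chromosomes 6, 8, 11 and 14 the median differences over 404 islands were 0.11 in clone 210-58, 0.22 in clone 226-47 and 0.09 in PJ34 treated cells. The shift was about as large without them, but some islands kept also differed in Cy3. On chr12:109239928-109242694 the Cy3 signal of clone 226-47 differed from wild type by -0.75. The part of copy number in the shift was not tested.

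Single islands were tested with limma, comparing the 2 clones with the wild type array in a fit over all 14121 regions with Benjamini-Hochberg adjustment and a threshold of 0.05. Of the long islands 7 rose (1.34%), against a background of 1.18% of all regions, and 1 fell (0.191%), against a background of 1.51%. At an unadjusted p under 0.05, 38 long islands were higher and 9 lower, where 757 of all 14121 regions were higher and 893 lower. By the adjusted p, the share that rose was near that of all regions. The spread comes from the 2 clones alone, the fit leaves 1 residual degree of freedom and gives its prior full weight, so an SE reflects the general trend and not the probes or clones of that island. With intensity loess 0 long islands passed (53 at an unadjusted p under 0.05), and with quantile normalization 1, the one that fell. Over all 14121 regions loess called 0 (1874 unadjusted), and quantile normalization called 0 higher and 26 lower.

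The 1 long island that fell was chr2:173941465-173943988, with 22 probes over 2524 bp. Its level was 0.02 in clone 210-58, -0.09 in clone 226-47, 4.61 in PJ34 treated cells and 3.60 in wild type. Both clones lay at the level of a typical probe, while the other 2 arrays were strongly enriched. The difference of the clones from wild type was -3.64 (SE 0.40, limma adjusted p = 1.117e-16), and the SD between the clones was 0.08. On 21 of 22 probes each clone was lower than wild type by at least 1. Probes ranged over -2.22 to 2.38 in clone 210-58, -1.63 to 2.13 in clone 226-47, 3.71 to 5.21 in PJ34 treated cells and 3.07 to 3.84 in wild type. Enrichment in PJ34 treated and wild type cells thus ran along the whole island, and the clones varied along it with an SD over probes of 1.25 and 1.04. The Cy3 signal of the clones differed from wild type by 0.02 and 0.10, so whole DNA was present at a similar level.

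The largest rise was on chr3:93528964-93531113, an island of 17 probes. Its level was 0.89 in clone 210-58, 0.12 in clone 226-47, -0.73 in PJ34 treated cells and -1.39 in wild type. Each of the 17 probes was higher than wild type in both clones, by at least 1 on 16 probes in clone 210-58 and 13 in clone 226-47. The difference was 1.90 (SE 0.31, limma adjusted p = 5.861e-07), with an SD between the clones of 0.55. In the 6 probes between positions 93530552 and 93531113 the mean was 1.28 in clone 210-58, 0.02 in clone 226-47, -1.03 in PJ34 treated cells and -2.03 in wild type.

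Next came chr9:57996138-57998037, with 16 probes. Its level was 1.34 in clone 210-58, 0.18 in clone 226-47, 1.12 in PJ34 treated cells and -0.52 in wild type. Clone 210-58 and PJ34 treated cells were both enriched, and clone 226-47 lay between them and wild type. The difference of the clones was 1.28 (SE 0.30, limma adjusted p = 0.0025). The SD between the clones was 0.82, the largest among the 7 risen islands.

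On chr2:31457239-31459342, of 17 probes, the level was 0.29 in clone 210-58, -0.17 in clone 226-47, 0.36 in PJ34 treated cells and -1.08 in wild type. All 17 probes were above wild type on each of the other 3 arrays. The difference of the clones was 1.14 (SE 0.30, limma adjusted p = 0.0095).

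The 18-probe island chr8:72830369-72832510 had 0.20 in clone 210-58, -0.59 in clone 226-47, 0.04 in PJ34 treated cells and -1.28 in wild type. Its difference was 1.08 (SE 0.32, limma adjusted p = 0.033). The Cy3 signal there was lower by 0.55 in clone 210-58 and 0.57 in clone 226-47 than in wild type, and the part of this in the rise was not tested.

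For chr6:52242929-52244433, with 15 probes, the level was 0.39 in clone 210-58, -0.17 in clone 226-47, -0.03 in PJ34 treated cells and -0.96 in wild type. Wild type was the lowest array, and its Cy5 signal was well above background on 11 probes of 15, while on the other arrays it was so on all 15. The difference was 1.07 (SE 0.30, limma adjusted p = 0.021).

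The smallest rises were on chr15:98924513-98926519 and chr7:18162672-18164231. The level of the chromosome 15 island, with 18 probes, was 0.57 in clone 210-58, 0.13 in clone 226-47, 0.40 in PJ34 treated cells and -0.63 in wild type, and its difference was 0.99 (SE 0.29, limma adjusted p = 0.033). That on chromosome 7, with 15 probes, was at 0.75, 0.02 and 0.15 in clone 210-58, clone 226-47 and PJ34 treated cells, and at -0.58 in wild type, with a difference of 0.96 (SE 0.29, limma adjusted p = 0.041). Wild type was the lowest array in both.

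In all 7 risen islands clone 210-58 was above clone 226-47. The SD between the clones was 0.31 to 0.82, and the SE was 0.29 to 0.32. That SE belongs to the difference of the clones' mean from 1 array. It is larger than the SD between clones that the fit assumed, so the 2 ranges are not like measures. The difference of clone 210-58 from wild type, its slide mate, was 1.20 to 2.28, and that of clone 226-47 was 0.60 to 1.51. PJ34 treated cells differed from the same wild type array by 0.66 to 1.65 on these islands. Over 9 other settings of processing and fit, the limma test was passed in 7 by the risen island of chromosome 3, in 6 by that of chromosome 8, in 5 each by those of chromosomes 9 and 2, in 4 each by those of chromosomes 15 and 7 and in 3 by that of chromosome 6. With clone 210-58 left out only chr3:93528964-93531113 was higher than wild type by at least 1.

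**Figure D4:**
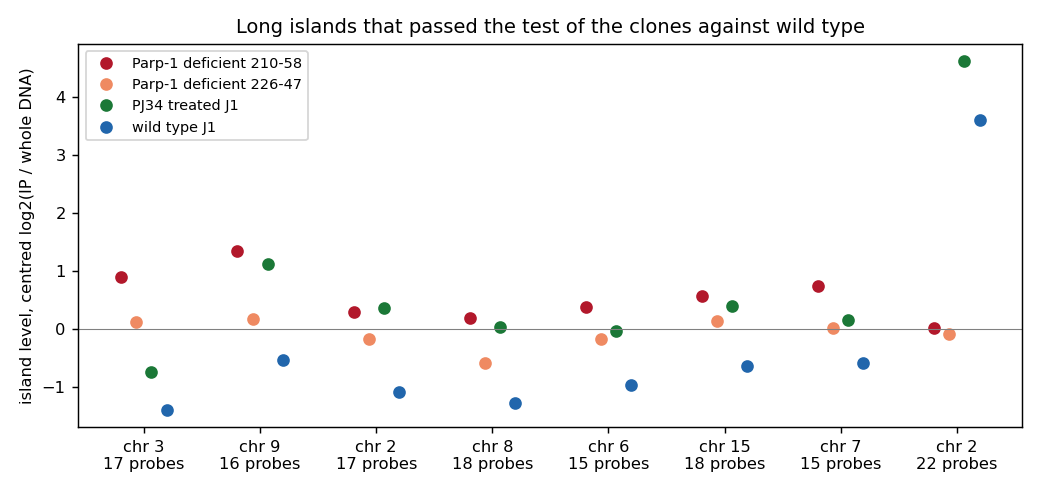
Levels (centred log2 of IP over whole DNA, vertical axis) of the 8 long islands that passed the limma test of the clones against wild type, 1 point per array. The 7 risen islands have wild type as the lowest point, and on the 22-probe island of chromosome 2 both clones lie near 0 while PJ34 treated and wild type cells lie at 4.61 and 3.60.

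By a fixed size, a mean difference of at least 1 with both clones on the same side of wild type, 5 long islands were higher, against a background of 1.35% of regions, and 2 were lower, against 2.33%. Clone 210-58 alone was higher by at least 1 in 16 islands (background 3.31%) and lower in 2 (background 3%). Clone 226-47 alone was higher in 1 (background 0.963%) and lower in 3 (background 2.96%). Between the clones, 210-58 was higher than 226-47 by at least 1 in 3 islands (background 1.41%) and lower in 1 (background 0.977%).

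A test of centre minus edge asked whether a difference was uneven along an island, fitted with limma on the 1743 regions of 11 or more probes. In the clones against wild type it rose in 13 long islands (2.49%), against a background of 1.15%, and fell in 3 (0.574%), against a background of 0.344%. Most regions of this fit are shorter than the long islands. Over the 13, the centre differed from wild type by -0.07 to 2.11 and the edges by -1.20 to 0.29, so either could carry the difference. Over the 3, the edges differed by 0.80 to 1.62 and the centre by -0.27 to 0.16, so there the edges were higher in the clones and the centre was nearly level. With intensity loess, quantile normalization or no mean-variance trend 0 passed by limma, and 66, 87 and 65 were at an unadjusted p under 0.05.

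The largest rise in centre minus edge was on chr8:72830369-72832510, one of the risen islands. Its centre was at 1.33 in clone 210-58, -0.16 in clone 226-47, 1.63 in PJ34 treated cells and -1.53 in wild type. Its left edge was at -0.01, -0.65 and -1.52 in clone 210-58, clone 226-47 and PJ34 treated cells, and at -0.46 in wild type. The middle of the island was higher than wild type on all 3 arrays, and most so in PJ34 treated cells, while the level of the whole island differed most in clone 210-58. Centre minus edge differed by 1.82 in the clones (SE 0.37, limma adjusted p = 0.00048) and by 3.43 in PJ34 treated cells.

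On chr11:50220251-50222011, with 17 probes, the centre was at 0.21 in clone 210-58, -0.49 in clone 226-47, -1.74 in PJ34 treated cells and -1.61 in wild type. The clones stood apart from both other arrays. Centre minus edge differed by 1.80 (SE 0.27, limma adjusted p = 4.254e-08), while the level of the whole island did not pass (difference 0.43, limma adjusted p = 0.764). Clone 210-58 had a Cy3 signal higher by 0.55 there and clone 226-47 by 0.02.

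For chr5:73769662-73771888 the centre was at 1.14 in clone 210-58, 0.53 in clone 226-47, -0.19 in PJ34 treated cells and -0.45 in wild type, and the left edge at -2.15, -1.18 and -1.90, and at -0.86 in wild type. The centre was higher in both clones than on the other arrays, and the left edge of clone 210-58 was the lowest, with 2 of its 3 probes well above background. The right edge was at -1.68 in clone 210-58, -1.02 in clone 226-47, -1.32 in PJ34 treated cells and -1.12 in wild type, so in clone 226-47 it was close to wild type. Centre minus edge differed by 1.80 (SE 0.50, limma adjusted p = 0.033).

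Some rises came from the edge. On chr16:91158358-91160664, of 22 probes, the right edge was at 0.75 in clone 210-58, 0.88 in clone 226-47, 2.01 in PJ34 treated cells and 2.49 in wild type, and the centre at 0.43, 0.54 and 0.61, and at 0.16 in wild type. That edge was lower in both clones than on the other 2 arrays. Centre minus edge differed by 1.30 (SE 0.28, limma adjusted p = 0.0010). The left edge of chr18:77062978-77064960 was at 1.61, 1.17 and 2.68 in clone 210-58, clone 226-47 and PJ34 treated cells, and at 2.90 in wild type, with a difference in centre minus edge of 1.13 (SE 0.27, limma adjusted p = 0.0065).

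The centre of chr14:47586780-47588757 was at 0.00 in clone 210-58, -0.39 in clone 226-47, -0.01 in PJ34 treated cells and -1.66 in wild type. Wild type had the lowest centre there, with 3 of its 5 central probes well above background in Cy5, and centre minus edge differed by 1.26 (SE 0.28, limma adjusted p = 0.0016) in the clones. The other 2 named islands, chr1:180363992-180367637 with 32 probes and chr12:110725551-110727824 with 18, differed by 1.25 and 1.16 (limma adjusted p = 0.00079 and 0.0074). On the chromosome 12 island the Cy3 signal of clone 226-47 was lower than wild type by 0.80.

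Among the 3 falls, chr4:139103531-139105734 was the largest. Its left edge was at 0.34 in clone 210-58, -0.46 in clone 226-47, -0.11 in PJ34 treated cells and -1.91 in wild type, and its centre at -0.82, -0.74 and -1.50, and at -0.71 in wild type. The edge was higher in all 3 than in wild type. Centre minus edge differed by -1.70 in the clones (SE 0.30, limma adjusted p = 1.122e-05) and by -1.90 in PJ34 treated cells. The others were chr17:27282665-27285640 at -1.11 and chr15:11848720-11851168 at -1.07, each with a limma adjusted p of 0.033. On the chromosome 17 island 1 of the 3 right edge probes was well above background in wild type.

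**Figure D5:**
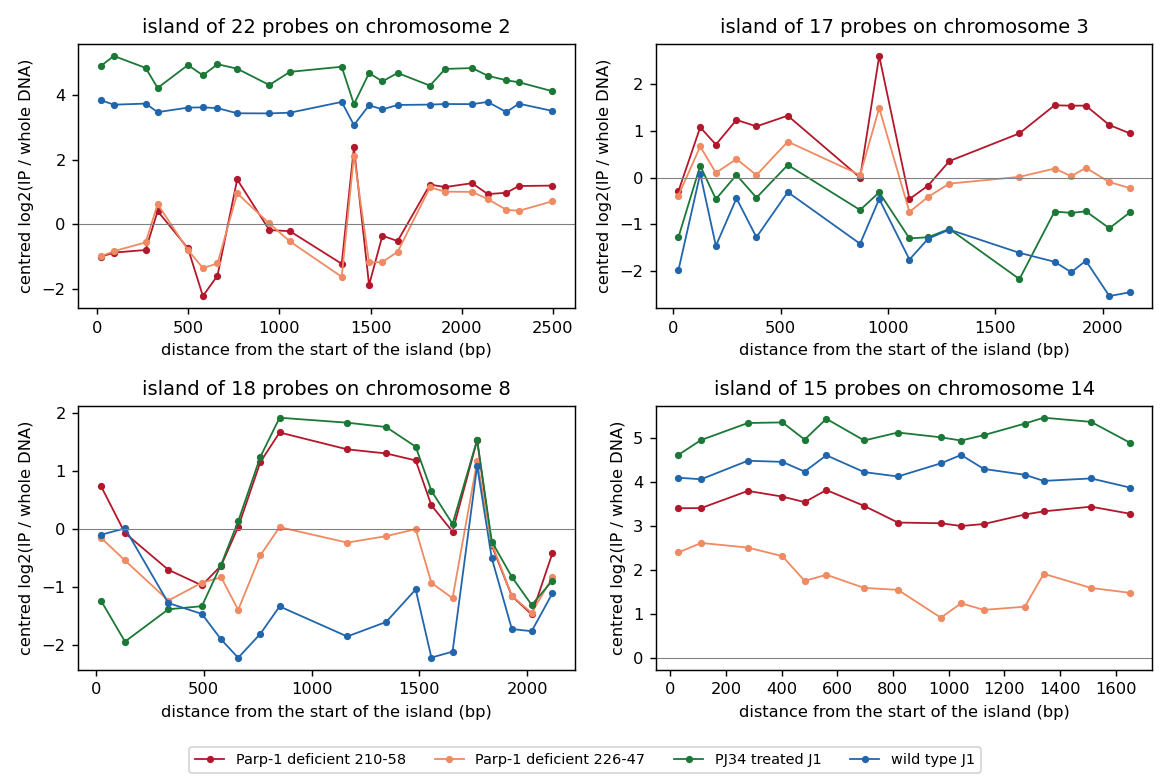
Centred log2(IP / whole DNA) of single probes (vertical axis) by distance from the start of the island in bp (horizontal axis) on 4 long islands, 1 line per array. On the 22-probe island of chromosome 2 PJ34 treated and wild type cells stay above 3 along its length, and on the 18-probe island of chromosome 8 the lines lie furthest apart in the middle.

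PJ34 treated and wild type cells had 1 array each on different slides, so their difference has no replicate check and slide and treatment cannot be told apart. PJ34 treated cells were higher by at least 1 in 12 long islands (2.29%), against a background of 2.44% of all regions, and lower by at least 1 in 0, against a background of 1.25%. These counts moved with the processing: there were 0 higher with intensity loess, 1 with normexp, 7 with quantile normalization, and 27 higher and 4 lower with medians over probes. Shares of all regions under these other settings are not given here, so those counts have no background to be read against. The comparisons of the clones and of PJ34 treated cells share the wild type array, so their values stand side by side only.

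The largest gain with PJ34 was on chr9:57996138-57998037, at 1.65, where the clones differed from wild type by 1.86 and 0.70. chr3:107723151-107725128, of 17 probes, had 1.46 in clone 210-58, 0.65 in clone 226-47, 1.66 in PJ34 treated cells and 0.20 in wild type, a gain of 1.46 with PJ34. The clones differed there by 0.85 and did not pass (limma adjusted p = 0.158). On chr2:31457239-31459342 the gain was 1.44 and on chr8:72830369-72832510 it was 1.32.

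Of the next gains, chr2:84639995-84641614, with 15 probes, had -0.55 in both clones, -0.10 in PJ34 treated cells and -1.40 in wild type. Its wild type array had 10 of 15 probes well above background in Cy5, against 13 in PJ34 treated cells. On chr15:75830167-75831964 the level was 2.34 in clone 210-58, 1.19 in clone 226-47, 2.13 in PJ34 treated cells and 0.98 in wild type. Clone 210-58 and PJ34 treated cells were high there and clone 226-47 was near wild type. The gains on these islands were 1.30 and 1.15, and those on chr17:27282665-27285640 and chr9:62942056-62944730 were 1.14 and 1.09.

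The 8 largest losses with PJ34 were smaller, at -0.93 to -0.59. On chr16:85788634-85790363, of 16 probes, the level was 0.84 in clone 210-58, 0.77 in clone 226-47, 0.61 in PJ34 treated cells and 1.54 in wild type. chr5:37156589-37158561 had -0.68 in clone 210-58, -0.18 in clone 226-47, -0.47 in PJ34 treated cells and 0.45 in wild type. Levels of chr5:94118954-94120884 were -0.52, -0.58 and -0.53 in clone 210-58, clone 226-47 and PJ34 treated cells, and 0.31 in wild type. Wild type was the highest array on each of the 3, and none passed the test of the clones (limma adjusted p = 0.276, 0.093 and 0.128).

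Over all 8 losses clone 210-58 was above wild type on 2 islands and clone 226-47 on 1. Of the other 5 losses, chr10:114204500-114206382 had 1.13 in clone 210-58, 0.58 in clone 226-47, 0.97 in PJ34 treated cells and 1.67 in wild type. Both clones were below wild type there. On chr10:80331726-80333767 the clones were at 0.78 and 0.24, PJ34 treated cells at -0.38 and wild type at 0.27. PJ34 treated cells were below both clones on the second of these but not on the first. The remaining losses were on chr7:3295623-3298037, chr17:70756513-70758734 and chr5:131590956-131592631.

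The clones were also compared with PJ34 treated cells in the limma fit, with 1 array on the PJ34 side. Of the long islands 1 was higher in the clones (0.191%), against a background of 0.871%, and 2 were lower (0.382%), against a background of 0.425%. With intensity loess 0 passed (31 at an unadjusted p under 0.05), with quantile normalization 1, a lower one, and with medians over probes 5 higher and 2 lower. The higher one was chr3:93528964-93531113, with a difference of 1.24 (SE 0.31, limma adjusted p = 0.0081). The lower ones were chr2:173941465-173943988, with -4.64 (SE 0.40), and chr14:67076809-67078483, with -2.57 (SE 0.60, limma adjusted p = 0.0037). On the chromosome 14 island the clones were at 3.37 and 1.73, PJ34 treated cells at 5.12 and wild type at 4.25, and the clones' difference from wild type of -1.70 did not pass (limma adjusted p = 0.108). All 15 probes of that island were lower than wild type in each clone, by at least 1 on 4 probes in clone 210-58 and on 15 in clone 226-47. The SD between the clones there was 1.16, the largest of any long island.

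Within slide 2, clone 226-47 differed from PJ34 treated cells by -4.69 on the chromosome 2 island, -3.39 on the chromosome 14 island and 0.85 on the chromosome 3 island. On slide 1, clone 210-58 differed from wild type by -3.58, -0.88 and 2.28 on the same islands. The directions on each island were the same on both slides, but the islands were picked by a test on these same arrays. The slides also hold different comparisons, so the shared direction is no check on a slide effect.

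Stretches of 4 or more adjacent probes, each differing from wild type by at least 1, were counted after the island values had been seen. Stretches higher in both clones held 29 probes in 5 long islands (0.296% of probes), against 0.069% in regions of 4 to 14 probes, and stretches lower in both held 39 probes in 5 islands (0.399%), against 0.492%. PJ34 treated cells had higher stretches in 38 long islands, with 223 probes (2.28%), against 0.936% in regions of 4 to 14 probes, and lower ones in 8 islands, with 37 probes (0.378%), against 0.281%. A longer run offers more places for such a stretch, so these shares describe the islands and were not tested.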

How the data were processed

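The measurements were 2-colour CpG island arrays of 4 samples, 1 array each. Agilent Feature Extraction 10.7.3.1 produced the deposited intensity values, per the file headers, which were background-subtracted and dye-normalized by a linear factor per channel, while the submitters' processing notes name version 9.1. The deposited series table holds a ratio per spot that equals processed Cy5 over Cy3 within 1e-06. Left out were 5950 control spots, 442 probes without a position and 30 flagged probes; 0 probes were saturated. The log2 of IP over whole DNA from the authors' processed signals was set to a median of 0 on each array, with no loess or quantile step. Dyes were not swapped, so dye effects of a probe cancel only in differences between arrays.

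Regions of 3 or more probes were fitted with limma 3.58.1 in R 4.3.3 (mean-variance trend, Benjamini-Hochberg over all regions, threshold 0.05) on all 4 arrays in 3 groups; centre minus edge was fitted on regions of 11 or more probes. The p-values rest on the general trend over regions of the spread between the 2 clones, not on that spread in the single island. The labels do not say that the clones are independent, and wild type is assumed to vary like them. Differences between single arrays were read by a size of at least 1. Slide as a block left no residual degree of freedom. Both fits were run on simulated data for the clones against wild type. The level fit (14121 regions, 200 changed) found 20.8% of changes of size 1 and 80% of size 2, with 15.0% of calls false. The centre minus edge fit (1743 regions) found 51.2% and 96%, with 5.70% false. The simulated noise was normal, with the same spread on all 4 arrays for regions of like value, and no slide effect. That is the spread the fit assumes, so these rates need not hold for the measured arrays.

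Islands were named by rule: the 8 with most probes, the 6 highest and 6 lowest in level and in centre minus edge, the 6 with the largest SD over probes, called islands with both clones on the same side (up to 12, 8 and 6 per direction), and the 8 largest gains and losses with PJ34. The members, rules and tests were chosen with earlier results of these data known. Alternatives were other background corrections, scalings, filters, region rules and fits.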

Additional observations from a re-analysis of the deposited data

Results flagged for a closer look

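3 long islands differed between the clones and PJ34 treated cells in their change from wild type, by the limma test of the difference itself. On chr2:173941465-173943988 the difference was -4.64, with levels of 0.02 and -0.09 in the clones, 4.61 in PJ34 treated cells and 3.60 in wild type. On chr14:67076809-67078483 it was -2.57, with 3.37 and 1.73 in the clones, 5.12 in PJ34 treated cells and 4.25 in wild type. On chr3:93528964-93531113 it was 1.24, with 0.89 and 0.12 in the clones, -0.73 in PJ34 treated cells and -1.39 in wild type.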

How the results depend on the processing

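With intensity loess 0 long islands passed the test of the clones against wild type by limma (53 at an unadjusted p under 0.05), 0 that against PJ34 treated cells (31 unadjusted) and 0 that of centre minus edge (66), and 0 differed by at least 1 with PJ34. Loess also called 0 of all 14121 regions against wild type (1874 unadjusted). Quantile normalization left 1 against wild type (74 unadjusted), 1 against PJ34, 0 for centre minus edge (87 unadjusted) and 7 for PJ34. Of all regions it called 0 higher and 26 lower against wild type (2717 unadjusted). Normexp left 7 for centre minus edge and 1 for PJ34. Without a mean-variance trend 3 passed against wild type (1 higher, 2 lower) and 0 for centre minus edge (65 unadjusted). Of all 14121 regions 64 were then called higher and 118 lower against wild type. Scaling by median absolute deviation gave 16 against wild type (13 higher, 3 lower), while of all 14121 regions it called 379 higher and 363 lower. Medians over probes gave 4 against wild type, 7 against PJ34 and 31 for PJ34 (27 higher, 4 lower). Against wild type they called 139 of all 14121 regions higher and 152 lower. Among islands of at least 20 probes there were 1, 1, 4 and 4. Splitting each island's probes into 3 equal parts gave 6 for centre minus edge, and a size of 0.5 gave 70 for PJ34 (57 higher, 13 lower). By size, leaving out 1 clone gave 4 to 18 islands against wild type and 8 to 9 against PJ34. A fit on regions of 10 or more probes alone, added after the data had been seen, called 11 (10 higher, 1 lower). Among its 2364 regions 30 were called higher and 10 lower. For the remaining counts of this paragraph no share of all regions is given.

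Median levels under normexp were 0.13 in clone 210-58, -0.10 in PJ34 treated cells and -0.21 in wild type. Under loess they were -0.038, -0.11 and -0.19. Clone 226-47 was at -0.17 with quantile normalization and -0.18 with medians over probes. With probes well above background on all arrays, clone 210-58, clone 226-47 and PJ34 treated cells were at 0.058, 0.080 and 0.057, and wild type at -0.12. Dropping probes of low Cy5 tends to raise levels, so 0 is not the typical probe kept by this filter. From 20 probes, clone 210-58 was at -0.095 and PJ34 treated cells at -0.19.

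Median centre minus edge in clone 210-58 was -0.10 with normexp, -0.20 with loess, -0.14 with the background filter, -0.50 from 20 probes and -0.18 with 3 equal parts. PJ34 treated cells had -0.10 with the filter and -0.42 from 20 probes, and clone 226-47 had -0.34 from 20 probes. Wild type had -0.22, -0.21, -0.47 and -0.23 with normexp, filter, 20 probes and 3 equal parts. A low centre with a high edge made up 4.59%, 2.87% and 4.78% of islands in clone 210-58, clone 226-47 and PJ34 treated cells, and 5.35% in wild type with normexp. It made up 8.03%, 4.21% and 6.50%, and 8.99% in wild type with loess, and 8.60%, 3.82% and 6.50%, and 7.27% in wild type with 3 equal parts. Low throughout fell to 11.1% in clone 210-58 with normexp and 16.5% in PJ34 treated cells with the filter. The causes were not tested.

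Among the values recomputed, no called one turned direction. Of 72 values of the named islands for the clones against wild type, 42 stayed past the threshold and 30 did not, and for centre minus edge 51 stayed and 48 did not. The limma adjusted p of chr2:173941465-173943988 ranged over 1.05e-19 to 0.332 and passed in 8 of 9 settings, and that of chr3:93528964-93531113 over 6.02e-10 to 0.332 and in 7 of 9. The other 6 risen islands passed in 3 to 6 of 9, with a highest p of 0.332 to 0.413. No paired analysis was possible because the labels give no replicate numbers and only the clones have more than 1 array. Slide as a block was not run, since it leaves no residual degree of freedom.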

Other observations

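The 11 regions of 15 or more probes on chromosome X, which are not members, had median levels of -0.18 in clone 210-58, -0.04 in clone 226-47, 0.09 in PJ34 treated cells and -0.13 in wild type. The one with most probes, chrX:11243846-11249050 with 45, had -0.50 in clone 210-58, -0.22 in clone 226-47, -0.10 in PJ34 treated cells and -0.47 in wild type. On chrX:11315335-11317524, of 21 probes, the level was 0.79 in clone 210-58, 0.50 in clone 226-47, 1.18 in PJ34 treated cells and -0.12 in wild type. Wild type was the lowest array there, and the difference of the clones of 0.76 did not pass (SE 0.31, limma adjusted p = 0.202). chrX:33479770-33481389, of 15 probes, had 0.53 in clone 210-58, 0.74 in clone 226-47, 1.15 in PJ34 treated cells and 1.47 in wild type, where wild type was the highest array and the difference of -0.84 did not pass either (SE 0.32, limma adjusted p = 0.169).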
